A study of Mus musculus with 24 samples.

Results

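Cd79a, Cd79b, Ms4a1, Cd22, Cd37, Blk, Ebf1 and Pax5 are genes of the B cell receptor complex, of the B cell surface around it and of the transcription program that defines the B lineage. They were chosen by name as 8 of the 56883 gene names in the surface RNA tables, and each was found there under 1 gene identifier. Surface RNA was measured in 15 libraries of C57BL/6 mice of WT genotype, 3 each from B cells, T cells and natural killer (NK) cells of the spleen and from hematopoietic stem and progenitor cells (HSPC) and monocytes of the bone marrow. Each population was obtained with a commercial isolation kit, and the kit used for the T cells selects CD8 T cells. AMOUR, the surface assay, primes RNA on fixed cells held on lectin beads and amplifies it in place with T7 RNA polymerase. The same genes were read in total RNA of peripheral blood mononuclear cells (PBMC) of wild type mice, in 3 groups of 3 libraries whose treatment labels ct, WT and Y have no explanation there and are kept as given. The study calls the surface libraries of a murine cell type biological replicates that are independent, without saying whether each came from its own animal. For PBMC nothing says that replicates came from separate animals, so p-values there measure the spread between these libraries, which may be technical.

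The B cell receptor is a membrane immunoglobulin that binds antigen but has almost no cytoplasmic part of its own. Cd79a and Cd79b encode the paired signaling chains Igα and Igβ, whose tyrosine motifs are phosphorylated by Src family kinases such as Blk and then recruit Syk. Cd22 encodes a sialic acid binding inhibitor of this signal, Ms4a1 encodes the membrane protein CD20, and Cd37 encodes a tetraspanin that is present on B cells and also on other leukocytes. Ebf1 and Pax5 encode the transcription factors that specify and then commit the B lineage, and Cd79a is a textbook target of both.

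The upstream sequence of Cd79a is shown because it holds letters of motifs bound by factors of this program. It covers chr7:24897247-24897380 of GRCm38 on the plus strand, up to the base before the gene start of the GENCODE release M21 annotation, and was read from the RefSeq promoter table of GRCm38.p6. The capitals mark an E-box (CAGGTG) and a variant of the Ebf1 motif (CTCNNGGGA) whose letters were chosen after this promoter was seen.
Cd79a: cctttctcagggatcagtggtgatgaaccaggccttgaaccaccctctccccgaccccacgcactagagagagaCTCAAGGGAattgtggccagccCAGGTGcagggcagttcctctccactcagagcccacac

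The RefSeq table held windows for 5 of the 8 genes, Cd79a, Cd22, Cd37, Ebf1 and Pax5, with 250 bases before and 50 bases after the start, and 6 windows in all. Both strands were searched. The Ebf1 motif CCCNNGGGA was found for Cd22 alone and in 6.56% of all 32851 windows, and its variant CTCNNGGGA for Cd79a alone and in 7.33% of all windows. The E-box CAGGTG was found for Cd79a, Cd22 and Cd37 and in 20.2% of all windows. The ETS core AGGAAG was found for Cd79a and Cd37 (35.4% of all windows), the Runx motif TGTGGT for Ebf1 (16.8%), and the octamer ATGCAAAT for none of the 5 (1.74%). These matches describe letters in a window and are not measured sites.

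All 8 genes are annotated as protein-coding in GENCODE M21 on GRCm38. Cd79a lies at chr7:24897381-24902197 on the plus strand, and Cd22 at chr7:30865402-30880342 and Cd37 at chr7:45233632-45239115 lie on the minus strand of the same chromosome. Ebf1 lies at chr11:44617317-45008091 on the plus strand and Cd79b at chr11:106311341-106314762 on the minus strand. Blk (chr14:63372836-63417037), Ms4a1 (chr19:11249675-11266241) and Pax5 (chr4:44524757-44710487) are on minus strands.

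The values of the surface libraries are transcripts per 1000000 (TPM), a length-corrected share of a library that keeps no depth, so the depth of these libraries is unknown and no counting interval is given. Protein-coding transcripts held 16.9% to 18.1% of the TPM in the monocyte libraries and 0.645% to 2.96% in the other 12. The monocyte libraries were also sequenced on another platform than the other 12, so platform and cell type cannot be told apart for monocytes. Orders that include monocytes on TPM are therefore read with this limit, and the percent of protein-coding TPM is given beside many of them. For this percent the TPM of a gene, summed over all its transcript types, was divided by the protein-coding TPM of the library. It is a ratio and not a strict part, since some of these transcripts are not protein-coding. The label of the B libraries was checked against genes outside the 8. Markers of T cells summed to 0.841 TPM in B libraries against 88.0 TPM in T libraries, and markers of NK cells to 0.734 against 426 TPM in NK libraries.

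The 8 genes together made up 254 to 392 TPM in the 3 B libraries. They summed to 19.5 to 33.4 TPM in NK libraries, 5.31 to 10.5 TPM in T libraries, 2.36 to 3.94 TPM in HSPC libraries and 41.4 to 48.7 TPM in monocyte libraries. As percent of protein-coding TPM they were at 1.27% to 1.42% in B libraries, 0.0880% to 0.134% in NK and 0.0668% to 0.0823% in T libraries. In monocyte libraries they were at 0.0234% to 0.0288% and in HSPC libraries at 0.0194% to 0.0207%. B libraries were highest on both scales without overlap, whereas monocytes came next on the first scale and after NK and T libraries on the other. In monocytes most of this sum was Cd37, and without that gene the sum was 3.92 to 10.3 TPM. In bulk samples, fewer cells of a type and less RNA per cell cannot be told apart.

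**Figure D1:**
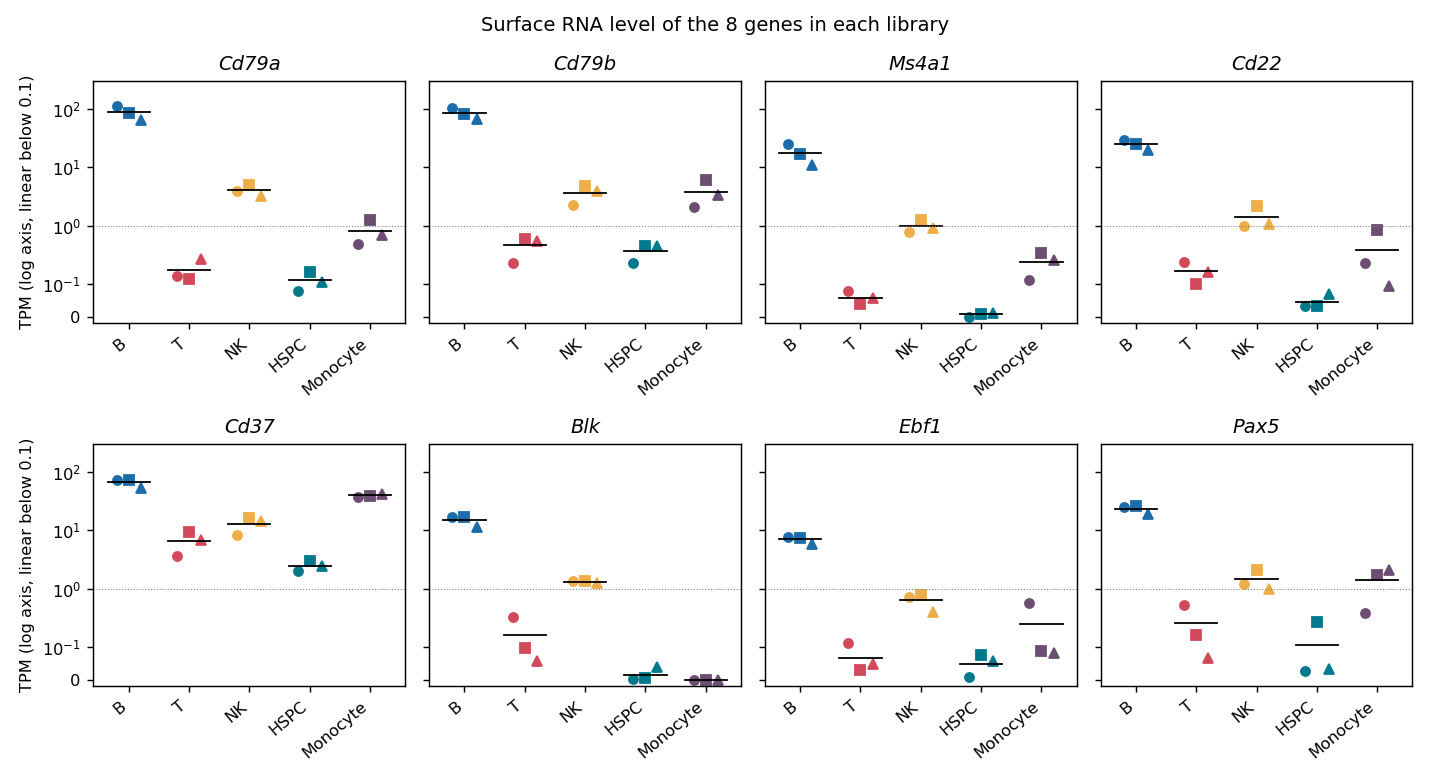
Surface level of each of the 8 genes in TPM (log axis, linear below 0.1) in the 15 libraries by cell type. Points are libraries, with one marker shape per replicate number, bars are means of 3, and the dotted line is 1 TPM. B libraries are above all others for every gene, and Cd37 alone is above 30 TPM in a second cell type, the monocytes.

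The signaling chains were the most abundant of the 8 on B cells. Cd79a was at 113, 85.1 and 65.6 TPM in the B libraries, at 3.91, 5.03 and 3.21 TPM in NK, at 0.497, 1.24 and 0.686 TPM in monocytes, at 0.140, 0.124 and 0.267 TPM in T and at 0.0785, 0.163 and 0.110 TPM in HSPC. The lowest B library was above every other library, and NK libraries stood above T, HSPC and monocyte libraries without overlap. Monocyte libraries were above T libraries on TPM but below them as percent of protein-coding TPM, at 0.000281% to 0.000732% against 0.000817% to 0.00222%. Cd79b, the partner chain, was at 103, 81.8 and 67.5 TPM in B, at 2.30, 4.88 and 3.94 TPM in NK, at 2.14, 6.08 and 3.37 TPM in monocytes, at 0.228, 0.606 and 0.551 TPM in T and at 0.228, 0.450 and 0.446 TPM in HSPC. Its NK and monocyte libraries overlapped on TPM, unlike those of Cd79a, but not as percent of protein-coding TPM, where NK libraries were at 0.0133% to 0.0196% and monocyte libraries at 0.00121% to 0.00360%. Cd79a and Cd79b were at 88.0 ± 23.9 and 84.0 ± 17.8 TPM in B cells (SD, n = 3), with overlapping ranges, and Cd79a was above Cd79b in 2 of the 3 B libraries.

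Fold changes were estimated with limma on log2(TPM + 1), a scale that understates the change of low genes, across the 13293 genes that were above 1 TPM in at least 3 libraries. Against the mean of the other 4 cell types, Cd79a was higher in B by 5.55 on the log2 scale (SE 0.17, limma adjusted p = 4.98e-11) and Cd79b by 5.04 (SE 0.23, adjusted p = 1.89e-09). In this comparison 8.23% of all tested genes were called higher in B. The same model gave 55.2% of genes called lower in B, and the median over all genes was -0.41. With every library rescaled to its protein-coding TPM the shares were 18.0% higher and 34.8% lower, the median was -0.25, and Cd79a and Cd79b were higher in B by 7.56 and 6.34.

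Of the 3 membrane proteins around the receptor, Ms4a1 and Cd22 followed the signaling chains at lower levels and Cd37 did not. Ms4a1 was at 24.7, 16.8 and 11.01 TPM in B libraries, at 0.775, 1.24 and 0.931 TPM in NK, and between 0 and 0.346 TPM in the other 9 libraries. It was listed at 0 in 1 HSPC library. As percent of protein-coding TPM it was at 0.000258% to 0.00123% in T and 6.66e-05% to 0.000204% in monocytes. The B libraries did not overlap with any other, although Ms4a1 varied most of the 8 between B replicates relative to its mean, at 17.5 ± 6.88 TPM (SD, n = 3). Its difference from the other cell types was 3.795 on the log2 scale, given without a test because Ms4a1 passed the filter on low values only through the B libraries.

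Cd22 was at 29.5, 25.4 and 20.03 TPM in B libraries, at 1.01, 2.19 and 1.06 TPM in NK, at 0.231, 0.836 and 0.0956 TPM in monocytes, at 0.240, 0.103 and 0.161 TPM in T and at 0.0342, 0.0322 and 0.0687 TPM in HSPC. On TPM the 3 NK libraries were again the highest outside B, and monocyte and T libraries overlapped. As percent of protein-coding TPM, T libraries (0.000679% to 0.00372%) were above monocyte libraries (5.27e-05% to 0.000494%) and overlapped with NK libraries (0.00358% to 0.00880%). Cd22 was higher in B by 4.19 (SE 0.17, limma adjusted p = 6.53e-10).

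Cd37, the tetraspanin, had the widest distribution. It was at 71.9, 72.5 and 53.2 TPM in B, at 37.5, 38.4 and 41.8 TPM in monocytes, at 8.28, 15.9 and 14.3 TPM in NK, at 3.64, 9.37 and 6.83 TPM in T and at 1.98, 2.93 and 2.40 TPM in HSPC. The order was B, monocyte, NK, T and HSPC, and of these neighbors only NK and T overlapped. Cd37 was above 1 TPM in all 15 libraries and was higher in B than in the mean of the other cell types by 2.63 (SE 0.24, limma adjusted p = 1.31e-06), the smallest difference of the 8.

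Against monocytes alone Cd37 was higher in B by 0.72 (SE 0.31, limma adjusted p = 0.0376), where 4.39% of all genes were called higher in B. This call was lost in 9 of 24 other settings, among them those that left out B replicate 1 (adjusted p = 0.0923), B replicate 2 (0.1001), HSPC replicate 3 (0.05001) or monocyte replicate 1 (0.0853), 2 (0.0786) or 3 (0.0561). The estimates over all settings lay between 0.63 and 3.62, and the adjusted p between 2.93e-10 and 0.1001.

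The place of monocytes in the order of Cd37 changed with the scale. As percent of protein-coding TPM, Cd37 was at 0.249%, 0.311% and 0.266% in B, at 0.0565%, 0.0618% and 0.0567% in T, at 0.0556%, 0.0637% and 0.0483% in NK, at 0.0211%, 0.0227% and 0.0230% in monocytes and at 0.0173%, 0.0152% and 0.0147% in HSPC. Monocytes moved from the place after B to the place after T and NK, and T and NK libraries overlapped. On TPM as deposited, Cd37 was lower in T than in monocytes (-2.47, limma adjusted p = 2.04e-06, with 88.6% of all genes lower in T) and lower in NK than in monocytes (-1.59, adjusted p = 0.000195, with 87.0% lower in NK). After rescaling to protein-coding TPM both directions reversed, with Cd37 higher in T by 1.38 (adjusted p = 8.64e-07, with 23.6% of all genes higher in T) and higher in NK by 1.31 (adjusted p = 2.58e-06, with 22.4% higher in NK). Quantile normalization gave the reversed directions too, by 0.70 and 1.00. On TPM the median of all tested genes was -2.42 for T and -2.003 for NK against monocytes, so that on this scale Cd37 lay near the median gene in T and above it in NK. B was highest for Cd37 under each of the 3 scalings.

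**Figure D2:**
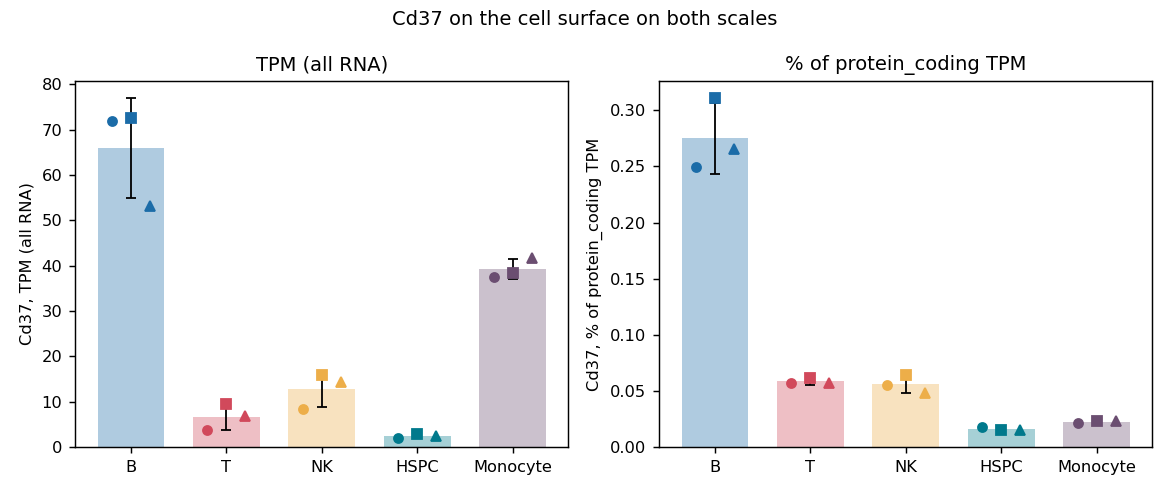
Cd37 in the 5 cell types as TPM (left) and as percent of protein-coding TPM (right). Bars are means of 3 libraries from 0, error bars are SD and points are libraries. Monocytes are near 39.2 TPM on the left and below the T and NK libraries on the right.

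Blk, a Src family kinase acting at the receptor, was at 16.9, 16.5 and 11.2 TPM in B libraries, at 1.33, 1.32 and 1.25 TPM in NK, at 0.325, 0.0976 and 0.0557 TPM in T and at 0.00264, 0.00432 and 0.0392 TPM in HSPC. It was listed at 0 in each of the 3 monocyte libraries, the only gene of the 8 with no signal in a whole cell type. On TPM the NK libraries were close to each other and separate from all others, whereas as percent of protein-coding TPM they spread from 0.00421% to 0.00891% and overlapped with T libraries (0.000463% to 0.00504%). Blk was higher in B by 3.61 (SE 0.11, limma adjusted p = 6.07e-11).

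Both transcription factors were also highest in B. Ebf1 was at 7.70, 7.20 and 5.88 TPM in B libraries, at 0.710, 0.789 and 0.401 TPM in NK and at 0.561, 0.0889 and 0.0821 TPM in monocytes, and it did not exceed 0.119 TPM in T or HSPC libraries. Its T and monocyte libraries overlapped as percent of protein-coding TPM, at 0.000197% to 0.00184% and 4.53e-05% to 0.000316%. It was the lowest of the 8 in every B library and was above 1 TPM in no library outside B. Pax5 was at 25.2, 25.5 and 19.2 TPM in B, at 1.22, 2.10 and 0.980 TPM in NK, at 0.380, 1.73 and 2.04 TPM in monocytes, at 0.531, 0.162 and 0.0676 TPM in T and at 0.0255, 0.271 and 0.0327 TPM in HSPC. Its NK and monocyte libraries overlapped on TPM but not as percent of protein-coding TPM, at 0.00331% to 0.00845% in NK and 0.000215% to 0.00112% in monocytes. Pax5 was higher in B by 3.87 (SE 0.22, limma adjusted p = 1.82e-08). The difference of Ebf1 was 2.69, given without a test because this gene too passed the filter only through B.

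All 8 genes passed the filter on low values, but Ms4a1 and Ebf1 passed only through the B libraries and had to differ, so no weight is given to the fact that all 8 were called higher in B. The other 6, Cd79a, Cd79b, Cd22, Cd37, Blk and Pax5, were also called higher in B against each other cell type on its own. The share of all genes called higher in B was 28.6% against T, 6.94% against NK, 22.9% against HSPC and 4.39% against monocytes. After rescaling these shares were 16.1%, 11.6%, 22.2% and 20.6%, and those called lower in B changed from 4.18%, 10.7%, 7.23% and 87.9% to 23.0%, 26.8%, 26.0% and 39.2%. The median difference over the 8 genes was 4.17 against T, 3.25 against NK, 4.36 against HSPC and 3.90 against monocytes, beside medians over all tested genes of 0.27, -0.06, 0.16 and -2.04.

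Within B cells the levels per length followed the order Cd79a, Cd79b, Cd37, Cd22, Pax5, Ms4a1, Blk and Ebf1. Neighbors in this order were separated without overlap only between Cd37 and Cd22 and between Blk and Ebf1. Replicate 3 was the lowest B library for each of the 8 genes on TPM, and it also had the lowest share of protein-coding TPM, at 2.00% against 2.88% and 2.34%. On the protein-coding scale the sum of the 8 was 1.36%, 1.42% and 1.27% in replicates 1, 2 and 3.

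Outside B cells the 8 genes were most evenly present in NK libraries. The NK mean was 4.41% to 19.5% of the B mean, with a median of 5.92%, and leaving aside Cd37 and the kinase and Ebf1 (8.74% and 9.14%) the other 5 genes were between 4.41% and 6.17%. Over all 1628 tested genes of at least 5 TPM in B, the median was 76.7% (quartiles 46.9% and 124%). T libraries had a median of 0.810% over the 8 genes, HSPC libraries 0.313% and monocyte libraries 2.54%, the last reaching 59.5% for Cd37, beside medians over the same 1628 genes of 43.0%, 29.5% and 291%. From the percent of protein-coding TPM the same medians were 6.55% for NK, 2.33% for T, 0.456% for HSPC and 0.347% for monocytes.

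Each of the 8 genes was lower in T than in NK on the TPM scale, where 34.7% of all genes were called lower in T and the median over all genes was -0.39. Cd79a showed the largest of these differences at -2.09 (limma adjusted p = 2.01e-05) and Cd37 had the highest adjusted p at 0.0370. After rescaling to protein-coding TPM, where 20.4% of all genes were lower in T, Cd37 (0.07, adjusted p = 0.714) and Pax5 (-1.74, adjusted p = 0.165) were no longer called. After quantile normalization, Cd37, Blk, Ebf1 and Pax5 were not called, with adjusted p of 0.111, 0.0591, 0.0702 and 0.238. Each of the 8 was higher in NK than in HSPC under all 3 scalings, with 16.6% of all genes called higher in NK on TPM and 20.2% after rescaling. Between T and HSPC libraries only Cd37 was called, higher in T by 1.08 (adjusted p = 0.0204, with 8.40% of all genes called higher in T).

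Markers of other cells also differed between libraries. NK libraries held neutrophil markers at a sum of 30.2 TPM, monocyte markers at 20.3 TPM, erythroid markers at 88.2 TPM and HSPC markers at 14.8 TPM, beside NK markers at 426 TPM. The same sums in B libraries were 0.222 TPM for neutrophil (0.00619 to 0.371) and 1.57 TPM for monocyte markers. They were 6.54 TPM for erythroid (1.08 to 15.8) and 0.525 TPM for HSPC markers. Of the erythroid sum, Car1 alone was at 53.7 TPM in NK libraries and 0.0611 TPM in B libraries. Lower in B than in NK were 5 of 8 neutrophil, 4 of 8 monocyte, 2 of 7 erythroid and 5 of 6 HSPC markers. The others were not called, and 10.7% of all genes were lower in B. Between NK and HSPC libraries, 7 of 8 neutrophil, 6 of 8 monocyte, 7 of 7 erythroid and 3 of 6 HSPC markers were not called. Of the rest, 1 neutrophil, 1 monocyte and 3 HSPC markers were lower and 1 monocyte marker was higher in NK. Of all 13293 genes, 2208 were higher and 113 lower in NK. Each of the 8 genes was higher in NK than in HSPC, as given above. The part of other cells or of free RNA in the NK levels of the 8 genes was not tested. Monocyte libraries held neutrophil markers at 1510 TPM beside monocyte markers at 4169 TPM.

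**Figure D3:**
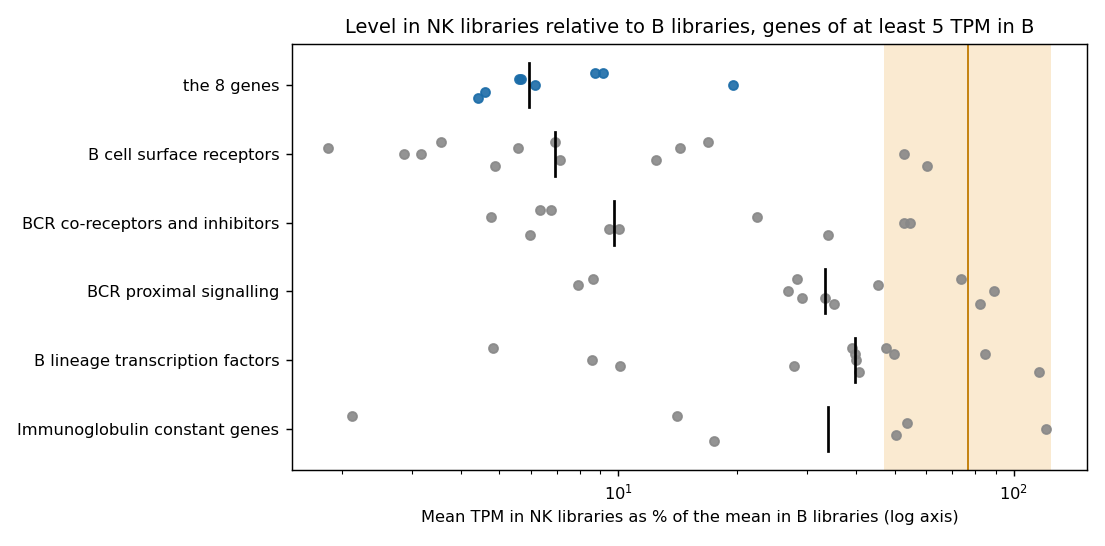
Mean TPM in NK libraries as percent of the mean in B libraries (log axis) for genes of at least 5 TPM in B, by list. Points are genes, black bars are list medians, and the line and shaded band are the median (76.7%) and quartiles over all 1628 such genes. The 8 genes lie between 4.41% and 19.5%, and the immunoglobulin genes spread from 2.12% to 121%.

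The immunoglobulin chains were followed in 6 constant genes, which share similar sequence in part (Iglc2 and Iglc3), so their separate values are uncertain. All 6 were higher in B than in the mean of the other cell types, on TPM and after rescaling, beside 8.23% and 18.0% of all genes, while their levels in NK libraries ranged widely. Ighm, the heavy chain of IgM, was at 345 ± 50.4 TPM in B and 185 ± 84.7 TPM in NK libraries (SD, n = 3). Igkc, the κ light chain, was at 264 TPM in B (158 to 409) and at 318 TPM in NK (232 to 413). The B libraries of Ighm (304 to 402 TPM) were above the NK libraries (90.5 to 254 TPM) without overlap, also as percent of protein-coding TPM (1.39% to 1.52% against 0.608% to 0.858%), and its T libraries, which enter the same model, ranged from 16.5 to 127 TPM. Neither gene was called between B and NK, with estimates of 1.01 (SE 0.58, limma adjusted p = 0.281) for Ighm and -0.34 (SE 0.64, adjusted p = 0.806) for Igkc. Ighd, the heavy chain of IgD on naive B cells, was at 53.9 TPM in B and 1.14 TPM in NK libraries and was higher in B by 4.67 (SE 0.22, adjusted p = 1.46e-08). Iglc2, a λ light chain, was at 56.4 TPM in B and 9.82 TPM in NK libraries (2.45, adjusted p = 0.00564). The NK mean was therefore 2.12% of the B mean for Ighd and 121% for Igkc, beside 4.60% for Cd79a and 4.41% for Cd79b. The joining chain Jchain, a plasma cell gene, was at 18.5 TPM in NK (12.3 to 27.2) and at 3.42 TPM in B (1.26 to 6.06) without overlap. Of the other genes of the plasma cell list, Prdm1 was also higher in NK without overlap, at 1.44 TPM (0.865 to 1.75) against 0.0895 TPM in B (0.0546 to 0.150). This was not particular to NK, since on TPM monocyte libraries overlapped with NK for Prdm1, at 1.39 TPM (0.824 to 1.79). Mzb1 was at 11.1 TPM in B and 1.60 TPM in NK, and Sdc1 at 0.395 and 0.404 TPM. Sdc1 did not pass the filter on low values. The 4 tested were Jchain, Prdm1, Mzb1 and Xbp1, the last at 2.73 TPM in B and 3.65 TPM in NK. Of these 4, 1 was higher in B than in NK, 2 were lower and 1 was not called. Over all genes 6.94% were higher and 10.7% lower. The set of 6 summed to 25.8 ± 9.78 TPM in NK and 17.7 ± 7.40 TPM in B. Whether plasma cell RNA has a part in the NK values of Ighm and Igkc was not tested.

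The enzymes and adaptors that act just after Cd79a and Cd79b were mostly higher in B than in the mean of the others, and their place relative to monocytes depended on the scale. Of 16 genes of proximal signaling, 11 were higher, 1 was lower and 4 were not called in B against the other cell types, where 8.23% of all genes were higher and 55.2% lower, with a median of 1.00 beside the -0.41 of all genes. After rescaling to protein-coding TPM, 15 were higher and 1 lower, beside 18.0% and 34.8% of all genes. Syk, the kinase recruited by the phosphorylated chains, was at 16.4 ± 2.24 TPM in B and at 54.2 ± 3.2 TPM in monocytes, and was higher in B than in the mean of the others by 1.65 (SE 0.18, limma adjusted p = 5.19e-06). Lyn, a Src family kinase like Blk, was at 10.9 TPM in B and 85.1 TPM in monocytes (0.99 against the other cell types, adjusted p = 0.000226). The adaptor Grb2 was at 12.3 TPM in B and 42.3 TPM in monocytes (1.18, adjusted p = 0.000239). Against monocytes alone, 3 of the 16 were higher in B and 13 lower on TPM, close to the 87.9% of all genes that were lower. After rescaling, 9 were higher, 1 was lower and 6 were not called, beside 20.6% of all genes higher and 39.2% lower. The 16 genes together were at 0.506% of protein-coding TPM in B (0.489% to 0.539%) and 0.248% in monocytes (0.238% to 0.254%). On this scale Syk was at 0.0687% in B and 0.0309% in monocytes (1.15, limma adjusted p = 0.0851), Grb2 at 0.0526% and 0.0241% (1.08, adjusted p = 0.000705) and Lyn at 0.0449% and 0.0483% (-0.11, adjusted p = 0.807). Blnk, the adaptor that Syk phosphorylates in B cells (2.83), and Bank1, a B cell scaffold protein (2.94), had the largest differences from the other cell types on TPM. They were picked for that and passed the filter only through B, so no test is given.

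Of 12 co-receptors and inhibitors of the receptor, 10 were higher in B, 1 lower and 1 not called against the other cell types, with a median of 2.30, beside 8.23% of all genes higher and 55.2% lower. Rescaling gave the same numbers of calls, and 3 of the 12 had passed the filter only through B. The lower one was Lilrb4a, an inhibitory receptor of myeloid cells, at 0.199 TPM in B and 78.3 TPM in monocytes (-1.70, limma adjusted p = 1.46e-07), and Cd5 was not called (-0.43, adjusted p = 0.0665). Siglecg, a sialic acid binding inhibitor related to Cd22, was at 17.9 TPM in B and 4.77 TPM in monocytes and was higher by 3.24 (SE 0.15, adjusted p = 2.96e-09). Ptpn6, the phosphatase recruited by Cd22, was at 40.2 TPM in B and at 76.2 TPM in monocytes, higher than the mean of the others (2.33, adjusted p = 2.16e-06) but lower than monocytes alone (-0.90, adjusted p = 0.00923), as were 87.9% of all genes. As percent of protein-coding TPM the direction turned, with 0.172% in B and 0.0432% in monocytes (1.97, adjusted p = 1.60e-06). Against monocytes alone, 6 of the 12 were higher in B, 4 lower and 2 not called on TPM, beside 4.39% and 87.9% of all genes.

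All 13 further B cell surface proteins were called higher in B than in the mean of the others, with a median of 2.90. The share of all genes called higher was 8.23%, and 18.0% after rescaling, when 13 were called again. Of the 13, 5 had passed the filter only through B and had to differ. Ly6d, a membrane-anchored marker of B lineage commitment, was at 65.0 ± 7.3 TPM in B and at no more than 4.25 TPM in any other library (5.33, limma adjusted p = 1.35e-10). Fcmr, the receptor for the Fc part of IgM, was one of these 5, at 45.8 ± 6.9 TPM in B and with a difference of 5.05. Cd52 was at 61.7 TPM in B, 46.2 TPM in T, 37.2 TPM in NK and 251 TPM in monocytes, and was higher in B by only 0.92 (limma adjusted p = 0.00853). As percent of protein-coding TPM it was at 0.254% in B, 0.416% in T, 0.169% in NK and 0.142% in monocytes, so that T libraries and not monocytes were above B. Against monocytes alone, 8 of the 13 were higher in B, 4 lower and 1 not called on TPM, beside 4.39% and 87.9% of all genes.

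Of 15 other B lineage transcription factors, 14 were higher in B than in the mean of the others and 1 was not called. The median difference was 1.65, beside 8.23% of all genes called higher. After rescaling 14 were again higher, beside 18.0%, and 2 of the 15 had passed the filter only through B. Spib, an ETS factor of mature B cells, was at 25.8 ± 1.84 TPM in B and differed by 4.17 (SE 0.13, limma adjusted p = 4.98e-11). Foxp1 was at 32.9 TPM in B and 54.1 TPM in monocytes (1.43 against the other cell types, adjusted p = 0.00106), and at 0.138% and 0.0308% of protein-coding TPM, again with the order turned. Ikzf1, which encodes Ikaros and acts in many blood lineages, was at 31.7 TPM in B, 27.1 TPM in T, 36.7 TPM in NK, 15.9 TPM in HSPC and 84.9 TPM in monocytes, with a difference of -0.05 (adjusted p = 0.898). As percent of protein-coding TPM it was highest in T, at 0.232% (0.182% to 0.271%). It was at 0.155% in NK, 0.133% in B, 0.103% in HSPC and 0.0483% in monocytes. Against monocytes alone, 8 of the 15 were higher in B, 3 lower and 4 not called on TPM, beside 4.39% and 87.9% of all genes. Spi1 was at 9.10 TPM in B and 119 TPM in monocytes, and at 0.0384% and 0.0674% of protein-coding TPM, so its order did not turn.

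Of 14 genes of early B cell stages, 6 passed the filter, and 1 of these was higher and 5 were lower in B, where 55.2% of all genes were lower. After rescaling 4 were lower, beside 34.8% of all genes. Vpreb3, which is also expressed past the progenitor stages, was the one higher, at 21.1 ± 2.2 TPM in B and at no more than 0.944 TPM elsewhere, a difference of 4.18 for which no test is given because it passed the filter only through B. Cecr2 was at 0.995 TPM in B and did not pass the filter. Vpreb1, a surrogate light chain gene of progenitors, was at 0.0292 TPM in B and 0.0761 TPM in HSPC libraries. Lef1, a factor of progenitors that T cells also express, was at 0.473 TPM in B and 14.6 TPM in T (-0.86 for B against the others, limma adjusted p = 0.0193, and -0.49 with adjusted p = 0.281 after rescaling).

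The genes whose surface pattern was most like that of the 8 were sought among 858 genes of at least 10 TPM in B, by Pearson's r with the mean standardized profile over the 15 libraries. The values are descriptions, since the libraries fall into B and the rest. Spib was closest at 0.994, followed by H2-Oa at 0.991, Fcmr and H2-DMb2 at 0.988, Snn at 0.987, Fcrla, Ciita and Tnfrsf13c at 0.986, Ighd at 0.985 and H2-Ob at 0.984. H2-Oa, H2-Ob and H2-DMb2 belong to the class II antigen processing machinery and Ciita is its transcriptional activator. Tnfrsf13c encodes the BAFF receptor of B cells.

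The surface tables resolved the 8 genes into 60 transcripts. Cd79a was represented by a single coding transcript and Cd79b by 2 coding transcripts, of which Cd79b-202 held 83.3% and Cd79b-201 16.7% of the mean in B. Cd37-202 held 75.7% of Cd37, Pax5-201 74.7% of Pax5 and Ms4a1-201 88.6% of Ms4a1. Coding transcripts made up 92.5% ± 5.64 of Cd37, 90.2% ± 6.07 of Pax5 and 88.4% ± 2.09 of Ms4a1 in B libraries (SD, n = 3). The remaining genes held large shares of other transcript types. In Ebf1, transcripts without a defined coding sequence made up 41.9% ± 6.38. In Cd22, transcripts annotated as targets of nonsense-mediated decay made up 50.1% ± 11.4 in B, with 37.3% in the lowest and 59.2% in the highest library, and Cd22-214 of this type was the largest Cd22 transcript at 10.004 TPM. The same type made up 4.37% to 29.4% of Cd22 in NK libraries, below the B range but at levels of 0.260 TPM on average.

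Blk had the largest share of an intron-retaining transcript. Blk-202 was at 5.20, 7.12 and 4.38 TPM in B libraries beside 11.7, 9.39 and 6.79 TPM of the coding Blk-201, which was above it in each library. The share of Blk-202 was 37.7% ± 6.32 in B (SD, n = 3, range 30.8% to 43.1%), and 27.0% to 60.3% in NK at a lower level. Over 683 genes of at least 5 TPM in B with both transcript types, the median share of intron-retaining transcripts was 11.1% (quartiles 2.97% and 29.7%), and Ms4a1 was near that median. Blk-202 is 622 bases long, of which 372 are retained intron and 250 are shared with exons of the 2326 bases of Blk-201. The join of the retained intron to the next exon is printed because reads across it separate both transcripts. It lies at chr14:63376017-63376076 of GRCm38 on the minus strand and was read from the GENCODE M21 transcripts, whose version of Blk-202 is earlier than the one in the tables. Lower case is intron and capitals are exon.
Blk-202: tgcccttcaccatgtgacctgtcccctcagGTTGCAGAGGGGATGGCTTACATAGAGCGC

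Shares between transcripts of one gene are estimates by kallisto from reads that overlapping transcripts share. Whether strand was used in this step is not stated.

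**Figure D4:**
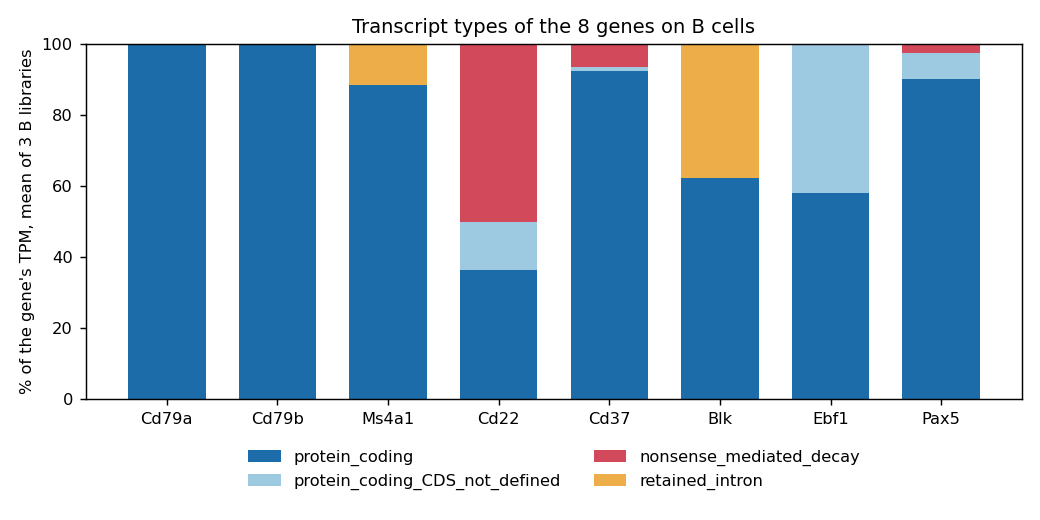
Composition of each of the 8 genes by transcript type in B libraries, as percent of the TPM of the gene (mean of 3 libraries). Cd79a and Cd79b are wholly protein-coding, Cd22 is 50.1% nonsense-mediated decay type and Blk is 37.7% retained intron.

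In PBMC the question was whether the B cell genes differed between the treatment labels ct, WT and Y. The 9 libraries held 4686432 to 9055803 expected counts, of which the ribosomal RNA gene CT010467.1 took 50.5% to 57.0%. The 8 genes together had 1213 to 2604 counts per library. Their sum was 266, 278 and 286 counts per 1000000 (CPM) in ct, 309, 304 and 224 CPM in WT and 259, 290 and 292 CPM in Y. These ranges overlapped, and the single lowest library was WT replicate 3, which also had the highest share of CT010467.1 at 57.0%.

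Of the 8 genes, 0 were called in any of the 3 comparisons by the quasi-likelihood test of edgeR over 11635 genes, and DESeq2 also called 0. The share of all genes called in either direction was 2.36% for WT against ct, 0.696% for Y against ct and 1.25% for Y against WT. At an unadjusted p below 0.05 the counts were 1, 0 and 2 of the 8. No share of all genes at this unadjusted threshold is given, so no conclusion is drawn from counts at it, here or below. The median difference over the 8 was 0.07 for WT against ct, -0.03 for Y against ct and -0.05 for Y against WT, beside medians within 0.01 of 0 for all genes tested. Both Y comparisons and both ct comparisons share libraries.

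Ebf1 had the largest differences. After TMM normalization it was at 25.9, 22.9 and 25.3 CPM in ct, at 29.0, 33.6 and 28.1 CPM in WT and at 22.5, 23.9 and 25.3 CPM in Y. The 3 WT libraries were above all 6 others, and ct and Y overlapped. The estimate was 0.29 for WT against ct (95% interval 0.08 to 0.49, unadjusted p = 0.00858, edgeR adjusted p = 0.184) and -0.33 for Y against WT (-0.54 to -0.12, unadjusted p = 0.00389, edgeR adjusted p = 0.150). Neither passed the adjustment, and the adjusted p over all settings lay between 0.155 and 0.627 and between 0.118 and 0.519.

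Pax5 was at 54.3, 56.3 and 47.8 CPM in ct, at 57.5, 60.8 and 56.0 CPM in WT and at 49.5, 53.6 and 49.4 CPM in Y. The WT libraries were above the Y libraries without overlap but overlapped with ct. Y against WT was -0.19 (95% interval -0.38 to -0.01, unadjusted p = 0.0446, edgeR adjusted p = 0.407), and its adjusted p over all settings was 0.332 to 0.868.

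The largest estimates of the receptor chains, surface proteins and Blk were below those of Ebf1 and Pax5 in size. Cd79a was at 40.7 ± 1.12 CPM in ct, 42.7 ± 3.44 in WT and 38.5 ± 0.552 in Y, and Cd79b at 30.2 ± 0.586, 31.7 ± 2.09 and 31.8 ± 1.18 CPM (SD, n = 3). The Y libraries of Cd79a (38.1 to 39.1 CPM) were below all 6 others (39.5 to 46.7 CPM), and those of Cd79b (30.98 to 33.2 CPM) were above the ct libraries (29.8 to 30.9 CPM) but overlapped with WT. For Cd79a the estimates were -0.08 for Y against ct (edgeR adjusted p = 0.876) and -0.15 for Y against WT (adjusted p = 0.538). Ms4a1 was at 23.4, 25.9 and 26.5 CPM, Cd22 at 28.4, 29.8 and 29.1 CPM, Cd37 at 60.9, 59.3 and 56.2 CPM, and Blk at 13.9, 12.8 and 13.98 CPM in the same order. The 95% intervals of these 6 genes lay between -0.37 and 0.38 in all comparisons. They are intervals per gene without adjustment. Since the spread between these libraries may be technical, they do not bound differences between animals.

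**Figure D5:**
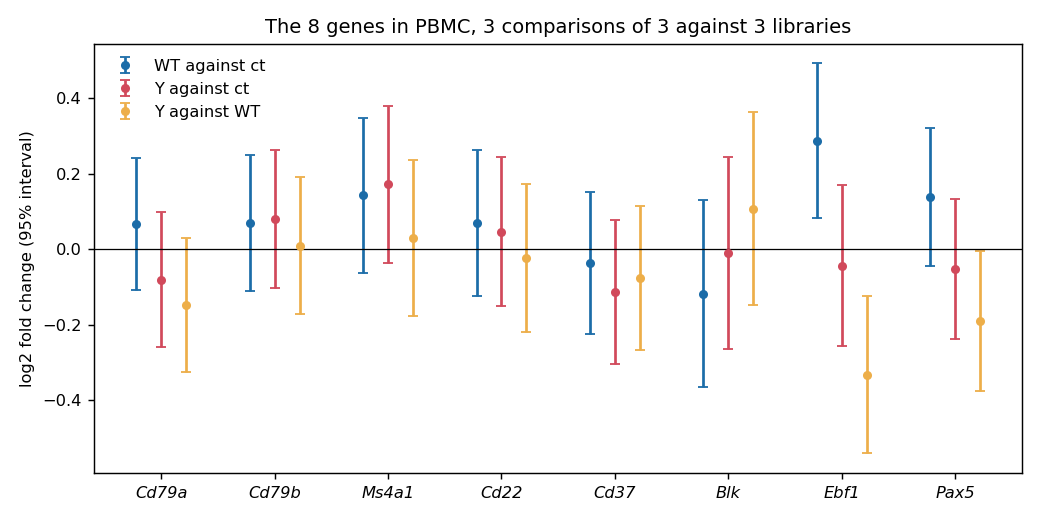
Log2 fold change of the 8 genes in PBMC with 95% intervals from edgeR for 3 comparisons of 3 against 3 libraries. The intervals of Ebf1 for WT against ct and Y against WT and of Pax5 for Y against WT exclude 0 before adjustment.

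Of the other B cell lists, edgeR called 0 of 16 proximal signaling genes, 0 of 12 co-receptors and inhibitors, 0 of 13 surface proteins, 0 of 15 transcription factors and 0 of 6 immunoglobulin genes in any comparison. Of all genes 2.36% were called for WT against ct, 0.696% for Y against ct and 1.25% for Y against WT. For lists this short, 0 calls are near these shares and say nothing particular about B cell genes. At an unadjusted p below 0.05 each list held between 0 and 4 genes in a comparison, from which no conclusion is drawn. Of the 6 tested genes of early B cell stages 1 was called, Il7r, the interleukin 7 receptor chain that T cells also express, which was lower in WT than in ct (-0.44, edgeR adjusted p = 0.0201). Some markers of other cells were called. Neutrophil markers summed to 91.8 CPM in ct, 76.6 CPM in WT and 232 CPM in Y, and of 7 tested 6 were higher in Y than in ct, 5 were higher in Y than in WT, and 2 were higher and 2 lower in WT than in ct. Erythroid markers summed to 7687 CPM in ct, 4449 CPM in WT and 4932 CPM in Y, with 7 of 7 lower in WT and 6 of 7 lower in Y than in ct. Platelet markers were lower than in ct for 6 of 6 in WT and 2 of 6 in Y. NK cell markers summed to 69.5 CPM in ct (66.1 to 73.8), 85.6 CPM in WT (68.1 to 94.9) and 69.8 CPM in Y (64.9 to 73.3), with 3 of 9 higher in WT than in ct and 1 of 9 lower in Y than in WT. Of 8 monocyte markers, 1 was higher and 1 lower in WT than in ct and 2 were lower in Y than in WT. Of 10 T cell markers 0 were called by edgeR, and at an unadjusted p below 0.05 the counts were 1, 0 and 0 for WT against ct, Y against ct and Y against WT. Of 5 tested plasma cell genes 1 was lower in WT than in ct. The part of these cells in the levels of the 8 genes was not tested.

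In PBMC the order per length was headed by Cd37 in each group, at 11.4 to 13.7 TPM on average, followed by Cd79a, Cd79b, Cd22 and Pax5. Over the 8 genes, the mean TPM in PBMC and on B cell surfaces had a Spearman correlation of 0.929, a description across genes that are not independent. The ratio of the surface B level to the PBMC level was highest for Cd79b at 11.6 and Cd79a at 10.9, and lowest for Ebf1 at 3.45 and Cd37 at 5.11. The TPM of these assays were set separately and the samples differ in cell types, so these ratios serve only to order the 8 genes. The genes most like the mean profile of the 8 over the 9 PBMC libraries were Traf1 (Pearson's r 0.942) and Tiprl (0.929) among 11627 candidates, with no gene of the B cell lists among the 10 closest.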

How the data were processed

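For the surface libraries the authors deposited TPM per transcript, 1 table per cell type, with kallisto among the tools in the submitters' processing notes. Per the labels, cutadapt, STAR and featureCounts were also used, and mm10 is the build. The transcript annotation of these tables is not given in the sources used here. The PBMC files hold RSEM's expected counts for each gene as deposited, and the notes also list Trim Galore, STAR and featureCounts with hg38 and mm10. The study's methods do not describe the PBMC experiment.

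TPM were summed by gene name and fitted on log2(TPM + 1) by limma 3.58.1 (R 4.3.3), with all 15 libraries together and a mean-variance trend, for 13293 genes above 1 TPM in at least 3 libraries. Expected counts were rounded, normalized by TMM and tested by quasi-likelihood in edgeR 4.0.16. Calls needed a Benjamini-Hochberg adjusted p below 0.05 over all genes tested. DESeq2 1.42.0, other pseudocounts, filters and scalings, a replicate block and leaving out each library were alternatives. Genes of the accompanying lists were named by the highest mean TPM in B cells, 3 per list, and any others were chosen after their values were seen. One gene that this rule names is not reported here. The 8 genes and the lists were chosen with earlier results of these data known. No surface columns were identical, and PBMC replicates of a group differed by a chi-square of 5.54 to 19.7 per gene, beyond sampling noise. The fits were tested on simulated data.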

Additional observations from a re-analysis of the deposited data

How the results depend on the processing

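In the comparisons of B with other cell types and in those of PBMC, the number of the 8 genes called did not change by over 1.5 times under any alternative run. Between the other cell types it did: all 8 were lower in T than in NK on TPM, 6 after rescaling and 4 after quantile normalization, and Cd37 in T and NK against monocytes changed direction under both. Leaving out each library gave 8 to 8 genes higher in B against T, NK, HSPC and the mean of the other 4, 7 to 8 against monocytes, and 0 to 0 in each PBMC comparison. With all libraries, 28.6%, 6.94%, 22.9%, 8.23% and 4.39% of all genes were higher in B in these comparisons, in that order. Ms4a1 and Ebf1 passed the filter only through B and had to differ, so they add no weight to the surface counts and values of this section. Of 992 alternative values of single genes in the comparisons with B, 9 lost their call and 0 changed direction, all 9 for Cd37 against monocytes. That call was also lost with a pseudocount of 0.1 TPM (limma adjusted p = 0.0559), without a filter (0.0519) and with protein-coding transcripts only (0.0508).

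In PBMC 11 of 360 values changed sign, all of genes with small differences and with adjusted p of 0.932 or more. Cd79b for Y against WT became -0.012 without a filter, and Blk for Y against ct became 0.0013 with the replicate block. The other 9 came from leaving out 1 library. Over the 9 libraries left out in turn, Cd79b for Y against WT lay between -0.027 and 0.060 (below 0 without WT replicate 1, WT replicate 3 or Y replicate 2) and Blk for Y against ct between -0.079 and 0.088 (above 0 without ct replicate 1 or Y replicate 3). Cd37 for WT against ct lay between -0.080 and 0.033 (above 0 without ct replicate 2), Cd22 for Y against WT between -0.062 and 0.043 (above 0 without Y replicate 1) and Ms4a1 for Y against WT between -0.014 and 0.083 (below 0 without WT replicate 3 or Y replicate 2). The cause was not tested.

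Deviations of same-numbered libraries correlated by -0.27 to 0.48 on the surface (median 0.005) and -0.06 to 0.06 in PBMC. Libraries of other numbers did so by -0.38 to 0.27 (median -0.005) and -0.07 to 0.07. The medians show no general pairing by number, but these values cannot exclude pairing of some libraries. With the replicate block, 8 genes stayed called in each B comparison, among them Ms4a1 and Ebf1, which had to differ, and 0 in PBMC. The lowest adjusted p over all 384 PBMC values of the 8 genes was 0.118.

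Counts over all genes moved more. Genes higher and lower in B against the mean of the others were 1094 and 7337, and 2437 and 937 without the monocyte libraries, 2391 and 4628 after rescaling and 2973 and 3490 after quantile normalization. In PBMC the genes called were 275, 81 and 146 for WT against ct, Y against ct and Y against WT, 484, 257 and 367 without a filter, and 175, 74 and 99 with DESeq2. Leaving out 1 library moved them too: WT against ct was 168 without WT replicate 2, Y against ct 167 without ct replicate 3 and 49, 42 and 34 without Y replicate 1, 2 and 3, and Y against WT 81 and 80 without WT replicate 2 and 3 and 82, 73 and 52 without Y replicate 1, 2 and 3. On the surface, genes higher in B than in T were 3796, and 2176 without T replicate 1, those higher in B than in NK were 922, and 612 without B replicate 2, and those lower in B than in NK were 1416, 941 without B replicate 3 and 2131 without NK replicate 1. The unknown depth of the surface libraries limits statements on genes near 0 TPM, and 71 to 128 counts of Blk per PBMC library limit its precision.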
